A study of Homo sapiens with 27 samples.

Results

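The plexin receptors are encoded by 9 genes of the human genome, *PLXNA1*, *PLXNA2*, *PLXNA3*, *PLXNA4*, *PLXNB1*, *PLXNB2*, *PLXNB3*, *PLXNC1* and *PLXND1*. They were taken by symbol from a count table of 61533 genes, and all 9 were in it. The cells were the 92.1 line, a *GNAQ* mutant uveal melanoma line, continually passaged in 100 nM of VS-4718 (FAKi), a selective inhibitor of focal adhesion kinase, or in the vehicle DMSO. RNA was sequenced from DMSO at day 0 and from each arm at days 3, 7, 14 and 21, with 3 libraries in each of the 9 groups and 27 libraries in all. Every group, the day 0 control included, is the same established line and carries the same *GNAQ* mutation. All 8 melanocytic marker genes were above 1 CPM on average, with a summed level between 9573 and 15025 CPM, while the 4 endothelial, 4 leukocyte and 4 epithelial markers each stayed below 1 CPM on average. Of the 5 fibroblast markers, *COL1A1* and *LUM* were above 1 CPM, and the list summed to between 6.03 and 17.0 CPM.

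Plexins are transmembrane receptors for semaphorins, the family of secreted and membrane-bound guidance cues first known from growing axons. Their cytoplasmic part acts on small GTPases of the Rap and Ras families, so that ligand binding changes the actin cytoskeleton and integrin adhesion. Many secreted semaphorins reach A-class plexins through the co-receptors neuropilin 1 and 2, whereas membrane-bound semaphorins bind plexins directly. In skin melanocytes plexin C1 is the receptor for semaphorin 7A. Focal adhesion kinase is a tyrosine kinase of integrin adhesions.

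Library totals ran from 12161994 to 43651551 counts, with a median of 24759579, and at days 3 and 14 each DMSO library was deeper than each FAKi library. Mitochondrial genes took 22.0% to 26.97% of the counts in DMSO at day 14 and 20.7% to 22.1% in FAKi at day 14, against 5.49% to 9.75% and 10.7% to 11.2% at day 21. FAKi day 7 replicate 1 stood apart from its group. It lay 0.215 from FAKi day 14 replicate 1, the shortest distance between any pair of the 27 libraries (16982 genes, log2 CPM, square root of the mean squared difference), while replicates of FAKi day 7 were 0.622 apart on average. Results of day 7 are therefore given with and without it. In the fit without it, FAKi day 7 replicate 2 remains, which lay nearest to a control, DMSO day 7 replicate 3 (0.3475). Its distance to FAKi day 7 replicate 3 was 0.4163. Replicates were also widely spread in DMSO at day 3 (0.619), day 21 (0.604) and day 14 (0.525), against 0.257 to 0.388 in the other groups. DMSO day 3 replicate 1 lay nearest to DMSO day 0 replicate 3 (0.261), whereas DMSO day 3 replicates 2 and 3 lay nearest to DMSO day 21 replicate 3 (0.380 and 0.324). These last 3 libraries had mitochondrial shares of 9.59%, 8.61% and 9.75%, against 18.1% in DMSO day 3 replicate 1, 16.8% to 18.7% in FAKi at day 3 and 5.49% in both other libraries of DMSO at day 21. DMSO day 21 replicate 3 lay 0.721 and 0.768 from its own replicates, and its column name in the table has an extra digit in the day, although its sample title says day 21. Day 3 and day 21 results are therefore also given without these libraries. The study's methods name biological replicates as well as plating in triplicate, and the labels do not say which of them a replicate number stands for, so a p-value measures only the spread between these libraries, which may be technical.

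Over the 27 libraries the plexins covered a wide range of levels. Levels are compared between genes as RPKM, which here is the TMM-scaled CPM per kilobase of the transcript counted. *PLXNA1*, a receptor for secreted and class 6 semaphorins, had the highest median at 26.3 RPKM, followed by *PLXNB2* at 23.1 and *PLXNB1* at 14.2 RPKM, both receptors for class 4 semaphorins. *PLXNC1* had a median of 12.7 RPKM and *PLXND1*, a receptor for SEMA3E, of 5.41 RPKM. *PLXNB3*, a receptor for SEMA5A, was at 2.92 RPKM and *PLXNA2*, a receptor for class 6 semaphorins, at 2.45 RPKM. The remaining A-class members were near the limit of detection, with *PLXNA3* at 0.0880 RPKM and 7 to 88 counts in a library, and *PLXNA4* at 0.00800 RPKM with 0 to 12 counts and no count in 7 libraries. Since 1 count is worth 0.0822 CPM in the smallest library and the highest *PLXNA4* level was 0.353 CPM, differences in this gene were not detectable at this depth.

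At day 0 the order was *PLXNB2* (25.0 ± 1.68 RPKM, SD, n = 3), *PLXNA1* (22.3 ± 2.88), *PLXNB1* (15.5 ± 2.04), *PLXND1* (6.03 ± 0.425), *PLXNC1* (5.81 ± 0.356), *PLXNA2* (4.25 ± 0.414) and *PLXNB3* (3.47 ± 0.337). The libraries of *PLXNB2* and *PLXNA1* overlapped, as did those of *PLXND1* and *PLXNC1*, and the other neighbours in this order did not. The member that changed place most was *PLXNC1*. It was the most abundant plexin in DMSO at day 14 (26.3 ± 2.10 RPKM) and in FAKi at day 14 (35.9 ± 2.79 RPKM), in both without overlap with the next gene, *PLXNA1*. *PLXNA2* went the other way and was at 0.780 ± 0.103 RPKM in FAKi at day 21.

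**Figure D1:**
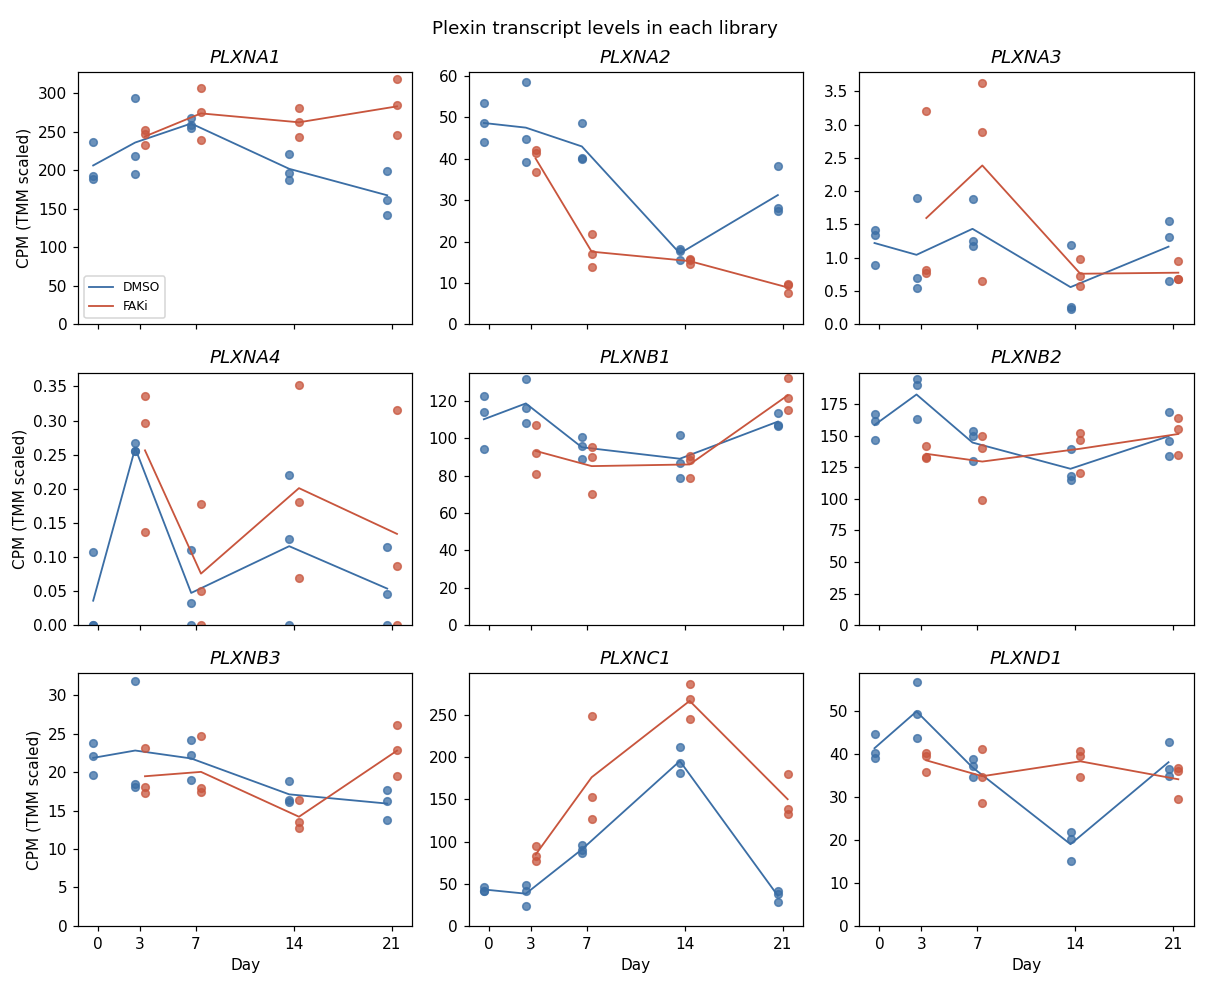
Level of each of the 9 plexin genes in every library (y axis, CPM scaled by TMM over all 27 libraries, from 0) against the day of collection (x axis), with DMSO in blue and FAKi in red. Points are single libraries and lines join group means of 3. *PLXNC1* climbs to 195 CPM in DMSO and 267 CPM in FAKi at day 14, *PLXNA2* falls to 8.92 CPM in FAKi at day 21, and *PLXND1* dips to 19.0 CPM in DMSO at day 14.

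The make-up of the summed plexin RPKM shifted accordingly. *PLXNC1* made up 7.06% ± 0.360 of it at day 0 (SD, n = 3 for all shares), 30.2% ± 0.972 in DMSO at day 14 and 33.4% ± 3.62 in FAKi at day 14. At day 21 its share was 6.60% ± 0.941 in DMSO and 19.9% ± 2.08 in FAKi. *PLXNA2* made up 5.15% ± 0.0556 at day 0, and at day 21 3.73% ± 0.379 in DMSO and 0.767% ± 0.0416 in FAKi. The shares of *PLXNB2*, 30.3% at day 0, lay between 20.4% and 32.4% in the group means, and those of *PLXNA1* between 24.8% and 31.6%. The sum itself was 82.5 ± 7.62 RPKM at day 0, 72.8 ± 7.69 in DMSO at day 21 and 101 ± 10.7 in FAKi at day 21.

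**Figure D2:**
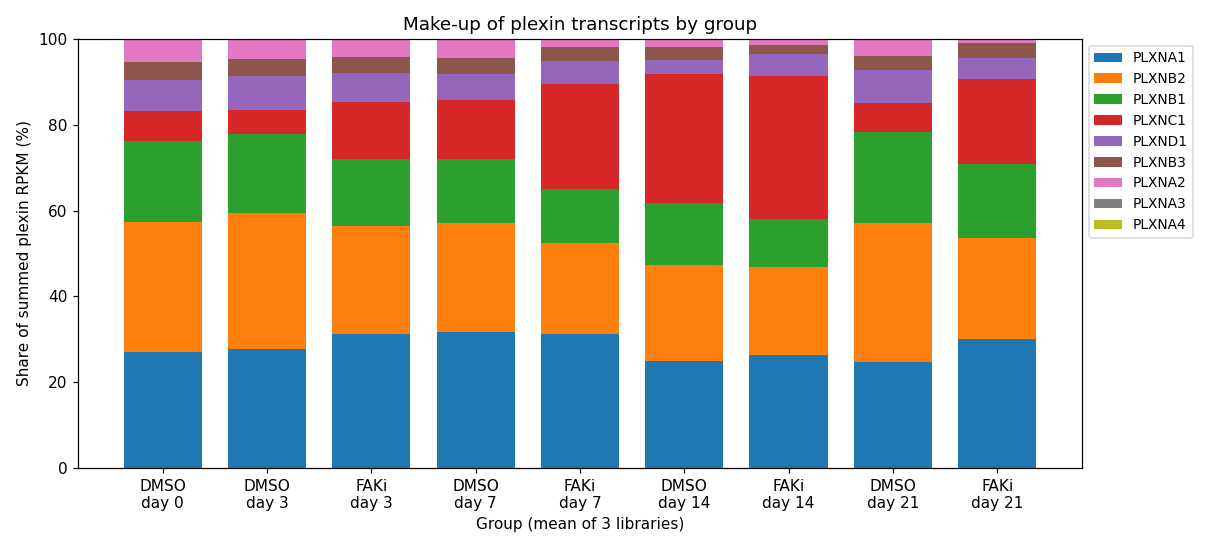
Share of each plexin in the summed plexin RPKM (y axis, percent, stacked from 0 to 100) in the 9 groups (x axis), as the mean of 3 libraries. The red segment of *PLXNC1* widens from 7.06% at day 0 to 30.2% in DMSO and 33.4% in FAKi at day 14, and at day 21 it is 6.60% in DMSO and 19.9% in FAKi.

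Of the 9 genes, 6 have a RefSeq start at the very base where the counted transcript begins. The 250 bases before that start are shown for the 3 plexins called in a comparison of FAKi with DMSO on a single day, the rule for showing a sequence here. Sequences are from RefSeq (GRCh38.p14) and read 5′ to 3′ on the strand of the gene. Capitals mark matches to the GC box GGGCGG on either strand. The windows are chr12:94148327-94148576 (plus strand) for *PLXNC1*, chr1:208244385-208244634 (minus strand) for *PLXNA2* and chr3:129606677-129606926 (minus strand) for *PLXND1*.
PLXNC1: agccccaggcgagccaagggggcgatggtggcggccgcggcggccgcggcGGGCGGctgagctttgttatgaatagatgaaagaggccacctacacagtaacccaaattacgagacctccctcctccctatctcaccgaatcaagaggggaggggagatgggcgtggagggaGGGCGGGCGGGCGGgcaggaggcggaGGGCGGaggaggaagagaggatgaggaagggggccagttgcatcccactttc
PLXNA2: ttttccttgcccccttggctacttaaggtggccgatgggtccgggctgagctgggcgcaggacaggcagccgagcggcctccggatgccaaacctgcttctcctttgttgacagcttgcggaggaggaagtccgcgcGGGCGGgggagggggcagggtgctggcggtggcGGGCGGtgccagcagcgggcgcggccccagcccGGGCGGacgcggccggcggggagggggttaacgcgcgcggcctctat
PLXND1: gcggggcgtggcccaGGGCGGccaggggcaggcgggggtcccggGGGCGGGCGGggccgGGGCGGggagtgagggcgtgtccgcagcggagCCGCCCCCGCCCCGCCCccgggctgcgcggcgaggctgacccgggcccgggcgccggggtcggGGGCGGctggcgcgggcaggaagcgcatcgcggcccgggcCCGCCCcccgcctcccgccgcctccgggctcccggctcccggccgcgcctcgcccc
The GC box occurs 5 times in the window of *PLXNC1*, 3 times in that of *PLXNA2* and 9 times in that of *PLXND1*, and 42.6% of the 35116 promoter windows of this length hold at least 1. *PLXND1* is the richest of the 3 in G and C with 88.8%, against 65.2% for *PLXNC1* and 72.4% for *PLXNA2* and a median of 58.0% over all windows. None of the 3 windows holds the letters GGAATG (bound by TEAD factors), TGANTCA (AP-1), CATGTG or CACGTG (E-boxes of the MITF type) or TATAAA on either strand. These are present in 11.9%, 6.57%, 9.42%, 6.34% and 10.7% of all windows, and their absence from 250 bases says nothing of the factors.

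*PLXNC1* (ENSG00000136040.9) lies on the plus strand of chromosome 12 of hg38 from 94148577 to 94307675, and its counted transcript has 31 exons in GENCODE 44. Its transcript level rose in the control cells themselves over the first weeks of passage and was higher in FAKi than in DMSO of the same day. At day 0 the libraries held 41.9, 41.4 and 46.2 CPM. DMSO at day 3 held 48.9, 41.7 and 23.96 CPM and FAKi at day 3 76.4, 94.5 and 82.8 CPM. Every FAKi library of day 3 was thus above every DMSO library of days 0 and 3. DMSO at day 7 held 86.5, 90.0 and 95.4 CPM, and FAKi at day 7 held 248, 127 and 153 CPM. The highest of these is the library that stood apart, replicate 1, whose level is close to the 245 CPM of FAKi day 14 replicate 1. At day 14 the levels were 193, 212 and 181 CPM in DMSO and 245, 269 and 286 CPM in FAKi, the highest group means of each arm, and the arms did not overlap. At day 21 they were 41.1, 28.5 and 37.6 CPM in DMSO and 138, 132 and 180.1 CPM in FAKi, so that the control libraries were back near their day 0 level while the FAKi libraries were not. Exons of genes on the opposite strand, *CEP83* among them, cover 6.37% of the exon bases of *PLXNC1*, and since the strand setting of the counting is not stated, reads from them cannot be told apart.

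Against day 0, *PLXNC1* passed an adjusted p of 0.05 in 6 of the 8 groups compared. Here edgeR stands for its quasi-likelihood test with Benjamini-Hochberg adjustment over all genes tested. In FAKi its log2 fold change was 0.97 ± 0.21 (SE), 2.03 ± 0.22, 2.63 ± 0.22 and 1.80 ± 0.21 on days 3, 7, 14 and 21 in turn, and the edgeR adjusted p was 0.027, 8.92e-07, 7.7e-09 and 8.04e-07. In DMSO it was 1.07 ± 0.21 at day 7 and 2.18 ± 0.22 at day 14 (edgeR adjusted p = 0.0145 and 3.36e-07), the latter a 4.52-fold higher level with no inhibitor present. Mitochondrial shares in DMSO at day 14 were 22.0% to 26.97%. At day 21 they were 5.49% to 9.75% in DMSO and 10.7% to 11.2% in FAKi, against 17.0% to 18.8% at day 0. The part of RNA quality in the day 14 and day 21 changes of *PLXNC1*, and of *PLXNA2* below, was not tested. At day 21 in DMSO the log2 fold change was -0.27 ± 0.21 (edgeR adjusted p = 0.343). The results at day 3 in FAKi and day 7 in DMSO rested on the full set of day 0 libraries: without DMSO day 0 replicate 1, 2 or 3 the edgeR adjusted p was 0.155, 0.215 and 0.104 at day 3, and 0.126, 0.131 and 0.0721 at day 7. Without FAKi day 7 replicate 1 the FAKi value of day 7 was 1.70 and still passed. The results at day 3 in FAKi and day 7 in DMSO also missed the threshold without FAKi day 3 replicate 2 or 3 and without any 1 library of DMSO day 7, respectively.

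**Figure D3:**
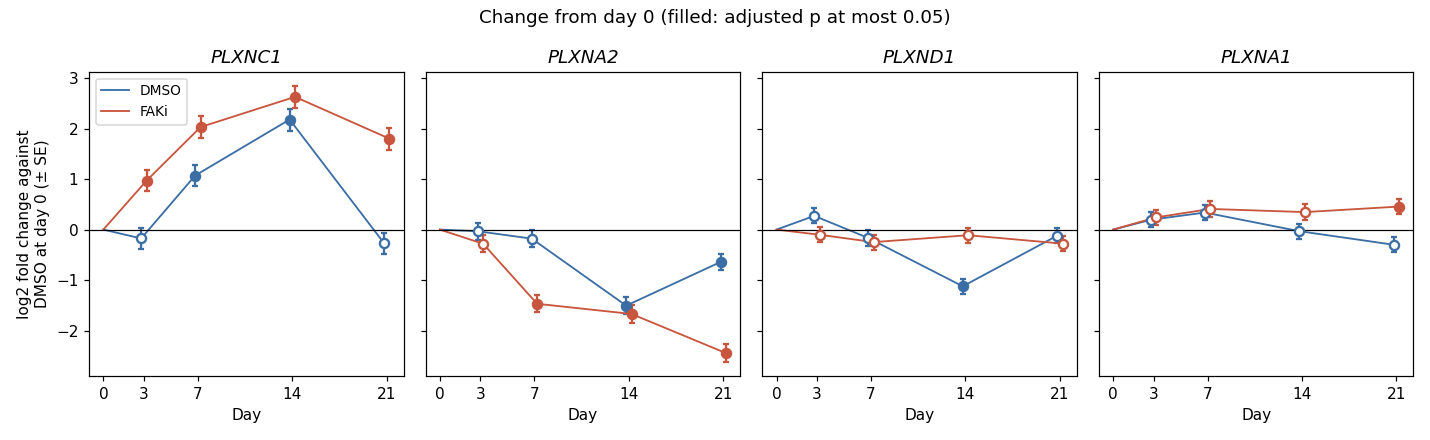
Change from DMSO at day 0 (y axis, log2 fold change ± SE from a fit of all 27 libraries) against day (x axis) for the 4 plexins that passed a comparison of FAKi with DMSO on a single day, with DMSO in blue and FAKi in red. Filled points have an adjusted p of at most 0.05. Both curves of *PLXNC1* peak at day 14 (2.18 in DMSO and 2.63 in FAKi) and part at day 21 (-0.27 and 1.80), while for *PLXNA2* they part at day 7 (-0.18 and -1.47), meet at day 14 and part again at day 21 (-0.64 and -2.44).

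*PLXNA2* (ENSG00000076356.7, hg38 chromosome 1, minus strand, 208022242 to 208244384, 32 exons) fell in both arms, and at days 7 and 21 FAKi lay below DMSO. At day 0 its libraries held 43.9, 48.5 and 53.4 CPM. At day 3 they held 58.4, 44.8 and 39.2 CPM in DMSO and 41.4, 42.0 and 36.7 CPM in FAKi, and the arms overlapped. At day 7 DMSO held 48.7, 40.2 and 40.0 CPM and FAKi 13.9, 21.7 and 17.0 CPM, with no overlap. DMSO had fallen to 18.3, 17.6 and 15.5 CPM at day 14, where FAKi held 15.7, 14.6 and 15.5 CPM and the arms overlapped again. At day 21 DMSO held 28.1, 27.3 and 38.2 CPM, above its day 14 libraries, and FAKi held 7.57, 9.42 and 9.78 CPM, below all other libraries of the series. The lowest of these levels rests on 176 counts.

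Against day 0, *PLXNA2* was lower in FAKi, with log2 fold changes of -1.47 ± 0.17, -1.67 ± 0.17 and -2.44 ± 0.18 on days 7, 14 and 21 in turn (edgeR adjusted p = 3.38e-06, 1.09e-07 and 1.8e-10). In DMSO the values were -1.50 ± 0.17 on day 14 and -0.64 ± 0.17 on day 21 (edgeR adjusted p = 1.05e-06 and 0.00303). Day 7 gave -0.18 ± 0.16 in DMSO. Each of these 5 results that passed did so in all 13 alternatives tried for its comparison, and without FAKi day 7 replicate 1 the FAKi value of day 7 was -1.33. Across the 27 libraries *PLXNA2* and *PLXNC1* ran in opposite directions, with a Pearson correlation of log2 CPM of -0.73 and a Spearman correlation of -0.69. These points share their groups and days and are given as a description.

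*PLXND1* (ENSG00000004399.13, chromosome 3, minus strand, 129555214 to 129606676, 36 exons) changed on a single day and in the control arm. Its day 0 libraries held 40.2, 39.04 and 44.5 CPM. At day 14 DMSO held 15.0, 21.8 and 20.1 CPM, the lowest libraries of the series, whereas FAKi held 39.4, 40.6 and 34.7 CPM, near the level of day 0. Against day 0 the log2 fold change at day 14 was -1.12 ± 0.15 in DMSO (edgeR adjusted p = 1.41e-05) and -0.11 ± 0.15 in FAKi (edgeR adjusted p = 0.679). At day 21 DMSO held 34.9, 36.4 and 42.7 CPM and FAKi 29.5, 35.9 and 36.7 CPM, and the arms overlapped. The DMSO libraries of day 14 had mitochondrial shares of 22.0% to 26.97%, and the part of RNA quality in the difference was not tested.

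*PLXNA1* (ENSG00000114554.12, chromosome 3, plus strand, 126983115 to 127037389, 32 exons) was higher in FAKi than in DMSO late in the course. At day 14 its libraries held 188, 222 and 197 CPM in DMSO and 281, 263 and 243 CPM in FAKi. At day 21 they held 162, 142 and 199 CPM in DMSO and 245, 285 and 319 CPM in FAKi, and on neither day did the arms overlap. At day 3 DMSO spanned 195 to 294 CPM and FAKi 232 to 253 CPM, and at day 7 DMSO spanned 255 to 268 CPM and FAKi 239.7 to 307 CPM, so that on both days the arms overlapped. Against day 0 it passed in FAKi at day 21 (log2 fold change 0.46 ± 0.15, edgeR adjusted p = 0.025), a result that was lost without DMSO day 0 replicate 1 or 2 and without FAKi day 21 replicate 2 or 3 (edgeR adjusted p = 0.0648 to 0.118). In DMSO at day 21 it was at -0.30 ± 0.15 (edgeR adjusted p = 0.124). On days 3, 7, 14 and 21 the group means were 236, 261, 202 and 168 CPM in DMSO. In FAKi they were 244, 274, 262 and 283 CPM.

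The question of the design was which plexins FAKi raised or lowered against DMSO of the same day. A gene passed at an edgeR adjusted p of at most 0.05 and was called if its absolute log2 fold change was also over 1. At day 3 none of the 9 plexins tested passed, as none of all genes did (0%). For 3 of the 9 plexins the unadjusted p was under 0.05, as it was for 5442 of all 22846 genes tested. DESeq2 passed 1842 of 17530 genes, and of the plexins 1, *PLXNC1*. Its log2 fold change was 1.16 ± 0.24 (edgeR adjusted p = 0.0945), and without DMSO day 3 replicate 1 it was 1.39 and called (edgeR adjusted p = 0.000363). The DMSO libraries of that fit are the 2 near DMSO day 21 replicate 3. In it 32.7% of all genes passed, and 2765 of 21745 genes were called. Without DMSO day 3 replicate 2 or 3 the log2 fold change of *PLXNC1* was 1.22 and 0.91 (edgeR adjusted p = 0.248 and 0.0958). FAKi and DMSO did not overlap for 4 of the 9 plexins, against 30.9% of all genes, with *PLXNC1* higher in FAKi and *PLXNB1*, *PLXNB2* and *PLXND1* lower. The B-class pair are receptors for SEMA4D and other class 4 semaphorins, and neither passed. *PLXNB1* held 108 to 132 CPM in DMSO and 80.9 to 107 CPM in FAKi (log2 fold change -0.34 ± 0.16). *PLXNB2* held 163 to 195 CPM in DMSO and 132 to 141 CPM in FAKi (-0.42 ± 0.15).

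At day 7 none of the 8 plexins tested passed, while 0.0269% of all genes passed and the same 0.0269% were called. The unadjusted p was under 0.05 for 1955 of all 22299 genes tested. Among the plexins it was so for 2, *PLXNA2* (log2 fold change -1.30 ± 0.18, edgeR adjusted p = 0.0762) and *PLXNC1* (0.96 ± 0.23, edgeR adjusted p = 0.279). These 2 were also the ones whose arms did not overlap, against 16.7% of all genes. DESeq2 passed both, among 199 of 19702 genes. Without FAKi day 7 replicate 1, the library that resembles day 14, the edgeR adjusted p was 0.000263 for *PLXNA2* with a log2 fold change of -1.15 and 0.00552 for *PLXNC1* with 0.62. The low-count *PLXNA3* passed as well in that fit (log2 fold change 1.16, edgeR adjusted p = 0.0294). With it 3 of 8 plexins passed there, against 2.96% of all genes.

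At day 14, 3 of 9 plexins passed, against 12.4% of all genes. They were *PLXND1* (log2 fold change 1.01 ± 0.14, edgeR adjusted p = 4.07e-05), *PLXNC1* (0.44 ± 0.10, edgeR adjusted p = 0.00444) and *PLXNA1* (0.37 ± 0.10, edgeR adjusted p = 0.0156), all higher in FAKi. Of these *PLXND1* was called, against 1.66% of all genes, with a log2 fold change that fell under 1 without DMSO day 14 replicate 1 and without FAKi day 14 replicate 1 or 2 (lowest 0.86), with upper quartile scaling and with filterByExpr, while its adjusted p passed in all 16 alternatives. The 3 genes were also those without overlap between arms, against 28.9% of all genes. *PLXNA1* missed the threshold when replicate 3 of DMSO or replicate 1 or 2 of FAKi was left out, with edgeR adjusted p from 0.0617 to 0.122. In a single fit of all 27 libraries neither *PLXNA1* nor *PLXNC1* passed (edgeR adjusted p = 0.135 and 0.193).

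At day 21, 3 of 8 plexins passed, against 11.6% of all genes, and 2 were called, against 5.28%. Without DMSO day 21 replicate 3, 4 of 8 passed, against 48.5% of all genes, and the same 2 were called, against 4248 of 22774 genes. *PLXNC1* was 4.35-fold higher in FAKi (log2 fold change 2.12 ± 0.18, edgeR adjusted p = 0.00257) and remained called without each library in turn, with log2 fold changes from 1.98 to 2.21. *PLXNA2* was at 0.296 of its DMSO level (log2 fold change -1.76 ± 0.19, edgeR adjusted p = 0.0042), and without FAKi day 21 replicate 2 it was at -1.80 with an edgeR adjusted p of 0.051. Without DMSO day 21 replicate 3 the log2 fold change was 2.17 for *PLXNC1* and -1.56 for *PLXNA2* (edgeR adjusted p = 3.49e-09 and 4.56e-08). *PLXNA1* was 1.75-fold higher (0.80 ± 0.17, edgeR adjusted p = 0.0267), but with each library left out in turn it passed 1 time of 6, without DMSO day 21 replicate 3 (0.96, edgeR adjusted p = 1.32e-06, against 0.0644 to 0.128 in the others). Mitochondrial shares at day 21 did not overlap between arms (5.49% to 9.75% in DMSO, 10.7% to 11.2% in FAKi). The part of RNA quality in the day 21 differences was not tested.

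The arms did not overlap for 5 of 8 plexins at day 21, against 35.4% of all genes, and the additional members were *PLXNB1* and *PLXNB3*, both higher in FAKi. *PLXNB3* held 16.3, 13.7 and 17.7 CPM in DMSO and 19.5, 22.8 and 26.1 CPM in FAKi. Its log2 fold change was 0.57 ± 0.17 (edgeR adjusted p = 0.061). With the replicate number as a block, which treats same-numbered libraries as pairs, it was 0.56 and passed (edgeR adjusted p = 0.0113), as did 6930 of 23212 genes. The labels do not say that these libraries are pairs. *PLXNB3* passed as well without DMSO day 21 replicate 3 (edgeR adjusted p = 0.000725). Of the exon bases of *PLXNB3*, 19.6% are shared with exons of *SRPK3* on the same strand, so part of its reads can belong to that gene. *PLXNB2*, the member of the second highest level, had a log2 fold change of 0.07 ± 0.15 (edgeR adjusted p = 0.781). In a culture, fewer cells of a kind and less RNA per cell cannot be told apart in such levels.

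**Figure D4:**
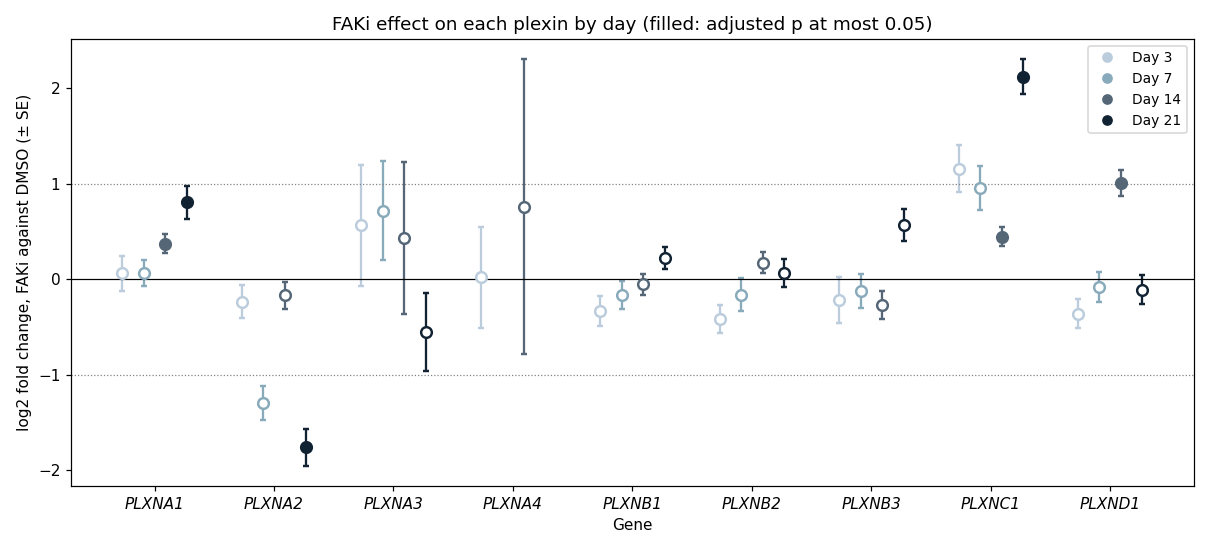
FAKi effect on each plexin (y axis, log2 fold change of FAKi against DMSO of the same day ± SE, 3 libraries per arm) at days 3, 7, 14 and 21 (light to dark). Filled points have an adjusted p of at most 0.05, dotted lines mark a log2 fold change of 1 in each direction, and *PLXNA4* had too few counts to be tested at days 7 and 21. *PLXNC1* is above 0 on each day, from 0.44 at day 14 to 2.12 at day 21, and *PLXNA2* ranges from -0.17 at day 14 to -1.76 at day 21.

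Over the 4 days together, in a fit of 24 libraries, 3 of the 9 plexins passed for the mean FAKi effect, against 15.7% of all genes. *PLXNC1* (1.16 ± 0.11, edgeR adjusted p = 1.24e-07) and *PLXNA1* (0.32 ± 0.08, edgeR adjusted p = 0.00756) were higher, as were 6.96% of all genes, and *PLXNA2* (-0.87 ± 0.09, edgeR adjusted p = 3.48e-07) was lower, as were 8.7% of all genes. Each of the 3 passed in all 32 alternatives of this fit. The median of the 9 log2 fold changes was 0.11, and that of all genes was 0.01. Over the 8 plexins at 1 CPM or more it was 0.045, against -0.004 for all genes at that level. The other 6 plexins lay between -0.09 and 0.61, the highest being *PLXNA4* with a standard error of 0.60.

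The FAKi effect differed between days for 3 of 9 plexins, against 10.3% of all genes, in a test of the treatment-by-day term. *PLXNA2* (edgeR adjusted p = 0.000345) had effects of -0.23, -1.30, -0.17 and -1.76 at days 3, 7, 14 and 21. *PLXND1* (edgeR adjusted p = 0.00134) had -0.36, -0.09, 1.01 and -0.11, and *PLXNC1* (edgeR adjusted p = 0.00784) had 1.16, 0.96, 0.44 and 2.12. The arms of *PLXNA2* and *PLXNC1* were thus closest at day 14, when both control levels stood farthest from day 0, and farthest apart at day 21. The *PLXNA2* effect of day 14 (-0.17 ± 0.14) was however within the spread of that of day 3 (-0.23 ± 0.18). At day 3 its control level was near that of day 0 (log2 fold change -0.03 ± 0.16). A link between the 2 was not tested. For *PLXNA1* the treatment-by-day test gave an edgeR adjusted p of 0.0645. It passed in 7 of 32 alternatives of this test. Among these were the fits without DMSO day 3 replicate 1, DMSO day 3 replicate 3, FAKi day 7 replicate 1 and DMSO day 21 replicate 3. Of all genes, 18.5%, 9.06%, 16.1% and 21.8% passed in those fits in turn.

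Counts over the whole family against day 0 are given beside those of all genes, and the 8 comparisons share the 3 libraries of day 0. In DMSO at day 3 none of 9 plexins had an unadjusted p under 0.05, against 3145 of 28164 genes, and none passed by DESeq2. By edgeR none passed in DMSO at day 3 (all genes 0.497%), while 1 passed on day 7 (0.245%), 3 on day 14 (15.9%) and 1 on day 21 (37.2%). In FAKi the numbers were 1 on day 3 (0.49%), 2 on day 7 (2.38%), 3 on day 14 (16%) and 3 on day 21 (26.7%). Beside *PLXNC1*, *PLXNA2*, *PLXND1* and *PLXNA1*, the only other plexin among these was *PLXNB3*, which was lower in FAKi at day 14 (log2 fold change -0.62 ± 0.19, edgeR adjusted p = 0.0277), with 16.4, 13.6 and 12.7 CPM against 19.6, 22.2 and 23.8 CPM at day 0. It missed the threshold without DMSO day 0 replicate 2 or 3 and without FAKi day 14 replicate 2 or 3 (edgeR adjusted p = 0.0745 to 0.112). The plexin that passed in DMSO at day 21 was *PLXNA2*. Without DMSO day 21 replicate 3, *PLXNA1* (-0.44) and *PLXNB3* (-0.54) passed there as well (edgeR adjusted p = 0.0245 and 0.0447), and 42.6% of all genes did.

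Group means of the B-class receptors lay close together. The lowest and the highest group mean of *PLXNB1* differed 1.44-fold (85.1 CPM in FAKi at day 7 and 123 CPM in FAKi at day 21), and those of *PLXNB2* 1.48-fold (124 CPM in DMSO at day 14 and 182 CPM in DMSO at day 3). The same ratio was 1.61 for *PLXNB3*, 1.69 for *PLXNA1*, 2.63 for *PLXND1*, 5.45 for *PLXNA2* and 7.46 for *PLXNC1*. Over single libraries *PLXNB3* spanned 2.51-fold and *PLXNA1* 2.25-fold. *PLXNB1* and *PLXNB2* followed each other over the 27 libraries (Pearson 0.79, Spearman 0.76), as did *PLXNB2* and *PLXND1* (0.73 and 0.79), and these are the highest Pearson correlations among the 28 pairs of the 8 plexins with a mean of at least 1 CPM. *PLXNA3* (chromosome X, 154458281 to 154477779) passed no comparison with all libraries in the fit and spanned 0.228 to 3.62 CPM. Without DMSO day 14 replicate 1 it passed for DMSO at day 14 against day 0 (log2 fold change -2.33, edgeR adjusted p = 0.0361), and the day 7 fit without FAKi day 7 replicate 1 is given above. *PLXNA4* (chromosome 7, 132123341 to 132577301) passed none with all libraries either. *PLXNB1* lies on chromosome 3 from 48403854 to 48430086, *PLXNB2* on chromosome 22 from 50274979 to 50307646 and *PLXNB3* on chromosome X from 153764196 to 153779346, all in hg38.

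Among 16981 other genes of at least 1 CPM, the levels most like those of *PLXNC1* over the 27 libraries were those of *STARD4-AS1* (Pearson 0.957), *EPHA4* (0.956), an ephrin receptor, and *ETS2* (0.955), a transcription factor. For *PLXNA2* they were *HK1* (0.971), a hexokinase of glycolysis, *MCAM* (0.943), a melanoma cell adhesion molecule, and *CCND1* (0.938), which encodes cyclin D1. For *PLXND1* they were *DOT1L* (0.915), a histone methyltransferase, *COLGALT1* (0.914), a collagen galactosyltransferase, and the semaphorin *SEMA4F* (0.902). Spearman correlations in the same order were lower for *PLXND1*, at 0.788, 0.786 and 0.636. They were 0.965, 0.943 and 0.927 for *PLXNC1* and 0.926, 0.900 and 0.920 for *PLXNA2*. Libraries of a group share their day and treatment, and these values describe likeness of pattern over them.

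The ligands, co-receptors and cytoplasmic partners of the plexins give the surroundings of these changes. Of 20 semaphorins, 19 had enough counts for the mean FAKi effect, with 3 higher and 3 lower in FAKi, against 6.96% and 8.7% of all genes, and a median log2 fold change of -0.01, against 0.01 for all genes. The median was -0.11 over the 16 at 1 CPM or more. The members with the smallest p were *SEMA6D* (1.22 ± 0.13) and *SEMA6A* (0.85 ± 0.10), which were higher, and *SEMA6B* (-1.20 ± 0.13), which was lower (edgeR adjusted p = 4.11e-07, 3.57e-06 and 4.49e-07), all of them membrane-bound class 6 semaphorins, ligands of A-class plexins. *SEMA7A*, the ligand of *PLXNC1* and named here after its values were seen, spanned 1.43 to 4.31 CPM. It passed on none of the 4 days (edgeR adjusted p = 0.124, 0.883, 0.501 and 0.94) and was lower in DMSO at day 14 than at day 0 (log2 fold change -0.92 ± 0.25, edgeR adjusted p = 0.0125).

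Of 13 co-receptors and partners in the membrane, 9 were tested, with 2 higher and 2 lower in FAKi, against the same 6.96% and 8.7%, and a median of 0.13, against 0.01 for all genes. The adhesion molecules *NRCAM* (-2.43 ± 0.17) and *L1CAM* (-1.58 ± 0.19), which form complexes with neuropilins, were lower. *MET* (0.51 ± 0.08), a receptor kinase that associates with B-class plexins, was higher (edgeR adjusted p = 4.33e-10, 2.63e-06 and 0.000115 for these 3). *NRP2*, neuropilin 2, named here after its values were seen because so few of the list passed, was also higher (0.52 ± 0.09, edgeR adjusted p = 0.000408). Of 33 cytoplasmic partners all were tested, 6 higher and 4 lower, again against 6.96% and 8.7%, with a median of -0.02, against 0.01. Those with the smallest p were *FARP1* (0.35 ± 0.06), an exchange factor that binds A-class plexins, *RAP2A* (0.52 ± 0.09), a Rap GTPase, and *CRMP1* (1.04 ± 0.19), a collapsin response mediator (edgeR adjusted p = 0.000219, 0.00052 and 0.000817).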

How the data were processed

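The authors plated cells in triplicate, prepared mRNA libraries with a stranded kit, used Trim Galore for trimming, STAR 2.5.3a with hg38 for alignment and HOMER for counting. Per the file headers, the deposited values are raw counts over the exons of 1 transcript per gene (GENCODE 39), without normalization, and the strand setting is not given in the sources used here. The transcript length is also deposited. Columns without a sample numbered 0.

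Counts were tested with edgeR 4.0.16 (glmQLFit, glmQLFTest, R 4.3.3), with DESeq2 1.42.0, the tool of the study's methods, as an alternative. Genes with under 20 counts over the libraries fitted were removed, libraries scaled by TMM, and p-values adjusted by Benjamini-Hochberg. Fits held the 6 libraries of a day, the 24 of days 3 to 21, or all 27 for comparisons with day 0. Levels used TMM over 27 libraries, and log2 CPM a prior count of 2. At 1 count the smallest library is at 0.0822 CPM, and with 3 replicates per group the precision is that of the spread between libraries.

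The members, lists and rules were chosen with earlier results of these data known. Named genes are all plexins, the 3 genes closest in pattern to each called plexin, the 3 of each list with the smallest p for the mean effect, and those said to be chosen after their values were seen. Same-numbered libraries deviated together at day 21 (r = 0.444, 0.128 and 0.659). They did not at day 3 (0.000839 to 0.107), day 7 (-0.144 to -0.0715) or day 14 (-0.0252 to 0.00978). By distance the numbers matched at day 21 for replicate 1 only. Of the FAKi libraries of day 21, replicate 1 was nearest to DMSO day 21 replicates 1, 2 and 3 alike (0.7085, 0.7705 and 0.5655). The same-numbered distances were 0.8635 for replicate 2 and 0.5898 for replicate 3. Whether same-numbered libraries are pairs is thus not known, and the block is an alternative only. The alternatives were RLE or upper quartile scaling, no filter, filterByExpr, DESeq2, the newer quasi-likelihood method, no mitochondrial genes, the replicate block, wider or narrower fits, each library left out and, added after seeing the data, counts thinned to the smallest library. The fits were tested on simulated data.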

Additional observations from a re-analysis of the deposited data

Results flagged for a closer look

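The effect of FAKi differed between days for 3 plexins by the treatment-by-day test in edgeR over 24 libraries. For *PLXNA2* the adjusted p of that test was 0.000345 (edgeR), with effects from -0.17 at day 14 to -1.76 at day 21. For *PLXND1* it was 0.00134 (edgeR), with effects from -0.36 at day 3 to 1.01 at day 14. For *PLXNC1* it was 0.00784 (edgeR), with effects from 0.44 at day 14 to 2.12 at day 21. All 3 passed in each of the 32 alternatives of this test, the 24 that left out a library included. *PLXNA1*, which did not pass with all libraries in the main fit, passed in 7 of the 32.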

How the results depend on the processing

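No plexin result changed sign between passing fits, and of 2036 values recomputed for single plexins 1965 stayed on their side of the threshold, 30 no longer passed and 41 newly passed. At day 3, no count filter, DESeq2 and all 27 libraries in a single fit each passed 1 plexin in place of 0, which was also called, and at day 7 each passed 2 and called 1 in place of 0. Of all genes these fits passed 3204 of 35807, 1842 of 17530 and 2575 of 28164 at day 3, and called 1181, 745 and 802. At day 7 they passed 449 of 33871, 199 of 19702 and 152 of 28164 genes, and called 220, 104 and 69. The single fit passed 1 plexin in place of 3 at day 14 (*PLXND1*), where upper quartile scaling and filterByExpr called 0 in place of 1. Leaving out each library gave 0 to 1 plexins at day 3 (called 0 to 1), 0 to 3 at day 7 (called 0 to 2), 2 to 3 at day 14 (called 0 to 1) and 1 to 4 at day 21 (called 1 to 2), and against day 0 it gave 0 to 1 for FAKi at day 3, 0 to 0 for DMSO at day 7 and 1 to 3 for DMSO at day 21. With only the 6 libraries compared, 4, 2, 5, 5 and 2 plexins passed against day 0 in FAKi at day 3, DMSO at day 7, DMSO at day 14, FAKi at day 14 and DMSO at day 21, in place of 1, 1, 3, 3 and 1. Of all genes, 138, 69, 4467, 4497 and 10470 passed these comparisons in the main fits. The highest numbers of all genes over the alternatives were 3021, 1081, 6418, 8410 and 11947 in turn. The last of them came from the fit without DMSO day 21 replicate 3. These highest numbers thus need not be those of the 6-library fits, whose share of all genes is not given here. The cause of these shifts in the number of plexins was not tested. The replicate block passed 4 plexins at day 21 in place of 3 and changed no other count of plexins. Over all genes the number passing was 0 at day 3 (0 to 7109 over the alternatives), 6 at day 7 (0 to 645), 2918 at day 14 (1396 to 3361) and 2692 at day 21 (52 to 11052, with 6930 under the block), and 4371 (3169 to 6849) for the mean effect. The order of the 9 median levels was the same in TPM. Depth limits *PLXNA4* and *PLXNA3*, with at most 12 and 88 counts in a library.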
